A study of Mus musculus with 2 samples.

Results

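The kinesin genes of the mouse were taken as all genes in the count table whose symbol begins with Kif and a digit, which gave 37 of 19465 genes. By known role, 10 are mitotic (*Kif2b*, *Kif4*, *Kif11*, *Kif14*, *Kif15*, *Kif18a*, *Kif20a*, *Kif20b*, *Kif22* and *Kif23*) and 8 are neuronal transport motors (*Kif1a*, *Kif1b*, *Kif3c*, *Kif5a*, *Kif5c*, *Kif17*, *Kif21a* and *Kif21b*). Another 8 are broadly expressed transport motors, 6 belong to cilia and centrioles, 4 are less studied, and *Kif1bp* matches by symbol but is no motor: its product binds kinesins. *Kif2c*, *Kif18b* and *Kif25* were not analysed here. All 37 passed the filter on low counts, so all entered the fits.

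Kinesins are motor proteins that use ATP to walk along microtubules or to take them apart at their ends. Dividing cells build a set of mitotic kinesins that push the spindle poles apart, position chromosomes and complete cytokinesis, and these genes are switched on shortly before division. Neurons do not divide, and they rely on transport kinesins to carry vesicles, mitochondria and neurofilaments from the cell body into long axons and dendrites.

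The data were 2 sections of mouse cerebellum, 5 µm thick, each holding a tumor grown from HP breast cancer organoids, which carry activating HER2 V777L and PIK3CA H1047R. The labels call the organoids HP-F1 +cre in section 1 and HP-B6 +cre in section 2 and give both the genotype HP and no treatment, and no section without a tumor was analysed here. Per the methods, the organoids came from mammary tumors that were started with Cre-expressing adenovirus, were selected as luciferase-expressing clones, and were injected into the cerebellum of immunocompetent, 5-month-old B6 mice. Transcripts were read by probes on an array of barcoded spots (Visium CytAssist), where a spot is a small piece of tissue that can hold several cells of different types. UMIs, which count captured molecules, were added up by section and region. There was 1 section per tumor, so each test below rests on 2 sections. It measures only how far the differences between regions varied from 1 section to the other. The fit also draws the spread of each gene toward that of all genes, so each p-value rests in part on other genes.

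Spots were placed by the balance of epithelial and stromal markers against 16 neural markers, without any kinesin. Section 1 held 803 tumor, 238 edge and 2094 neural spots and section 2 held 841, 361 and 2557, where edge spots had an intermediate balance and lay within 5 array steps of a tumor spot. Tumor spots were far deeper, with a median of 53329 and 41039 UMIs against 7592.5 and 9782 in neural spots, so levels below are TMM-scaled CPM, counts relative to the scaled total of the library, unless another scale is named. The sections differed in what their tumor held. The 7 epithelial markers summed to 48.5 CPM in the tumor of section 1 and to 12200 CPM in that of section 2, whereas the 6 stromal markers, with collagen genes in the lead, summed to 61103 and 898 CPM. *Epcam* and *Krt7* stood at 7.11 and 3.15 CPM in the tumor of section 1, so that region, labelled as breast tumor, nearly lacked its defining epithelial markers. Neural markers summed to 726 and 807 CPM in tumor against 21140 and 18065 CPM in neural spots. Because a spot mixes cells, fewer cells of a type and less RNA per cell cannot be told apart in any level below.

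**Figure D1:**
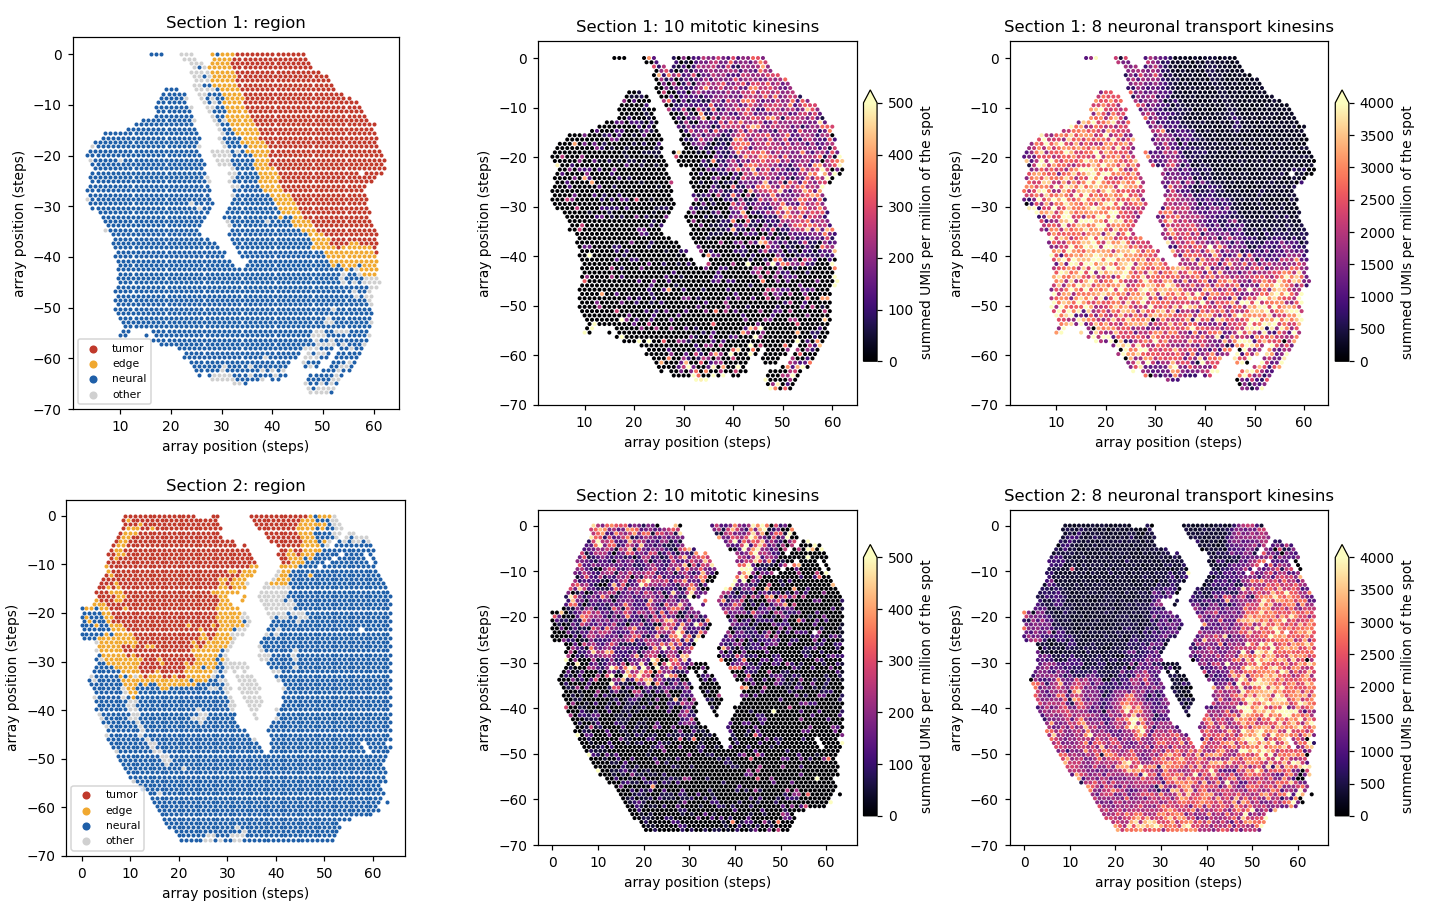
Each point is a spot at its array position in steps, section 1 in the upper panels and section 2 in the lower ones; colors show the region (left) and the summed CPM of the spot for the 10 mitotic (middle) and the 8 neuronal transport kinesins (right), with the brightest color for all values past the end of the scale. Mitotic kinesins light up the tumor of both sections, and neuronal transport kinesins light up the tissue around it.

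The mitotic kinesins were higher in the tumor of both sections than in the surrounding neural tissue. Summed over the 10, tumor spots of sections 1 and 2 held 257 and 247 CPM, edge spots 99.3 and 170 CPM, and neural spots 39.1 and 41.8 CPM. Of the 10 members, 9 rose by edgeR's quasi-likelihood test at a Benjamini-Hochberg adjusted p below 0.05, against 13.8% of all 19231 genes tested that were called higher. The median log2 fold change of the 10 was 2.75, beside −0.07 over all genes.

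*Kif11*, whose product slides spindle microtubules apart to separate the poles, had 53.3 and 58.7 CPM in tumor, 16.2 and 38.0 CPM at the edge and 5.09 and 6.14 CPM in neural spots of sections 1 and 2. Every tumor value lay above every edge value, and every edge value above both neural values. The log2 fold change of tumor over neural was 3.33 (SE 0.37), 10.1-fold, with an adjusted p of 0.0052 by edgeR's quasi-likelihood test. *Kif15*, which helps to keep the spindle bipolar alongside *Kif11*, had 25.7 and 22.1 CPM in tumor, 8.01 and 13.8 at the edge and 2.36 and 2.38 in neural spots. It showed the same order of regions without overlap, with a log2 fold change of 3.34 (SE 0.39, adjusted p = 0.00563 by edgeR).

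The members that act in the central spindle and in cytokinesis had the same pattern. *Kif20a*, which moves the chromosomal passenger complex to the central spindle, had 30.6 and 21.1 CPM in tumor, 6.28 and 15.2 at the edge and 1.54 and 1.74 in neural spots. It had the largest fitted rise among the members, a log2 fold change of 4.01 (SE 0.55, adjusted p = 0.00875 by edgeR), with 3.93 in section 1 and 3.27 in section 2 when 0.5 CPM was added to both levels. *Kif20b* rose by 3.03 on the log2 scale, from 2.42 and 3.96 CPM in neural spots to 22.3 and 28.9 CPM in tumor. *Kif23*, a subunit of centralspindlin, rose by 2.98 in the fit, with 2.40 in section 1 and 3.34 in section 2. *Kif4*, a motor that binds chromosomes and shortens the overlap of microtubules in the midzone, rose by 2.53, and *Kif14*, needed for cytokinesis, rose by 2.03 (adjusted p = 0.0233 by edgeR). For each of these 5 genes both tumor values lay above both edge values, and both edge values above both neural values.

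A rise was also found for *Kif22*, a motor that pushes chromosome arms toward the spindle equator. So it was for *Kif18a*, which limits the swinging of chromosomes at the metaphase plate, with the smallest fitted rise among the called mitotic members. *Kif22* had 36.6 and 30.6 CPM in tumor and 6.06 and 10.4 CPM in neural spots, a log2 fold change of 2.10, and *Kif18a* had 18.6 and 21.4 against 6.11 and 5.70 CPM, a log2 fold change of 1.75. *Kif2b*, a motor of the microtubule-depolymerizing class, was the mitotic member that did not pass, with 2.33 and 2.82 CPM in tumor and 3.39 and 2.62 CPM in neural spots. Its tumor and neural values overlapped, and it rested on 66 to 86 UMIs in these 4 libraries.

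**Figure D2:**
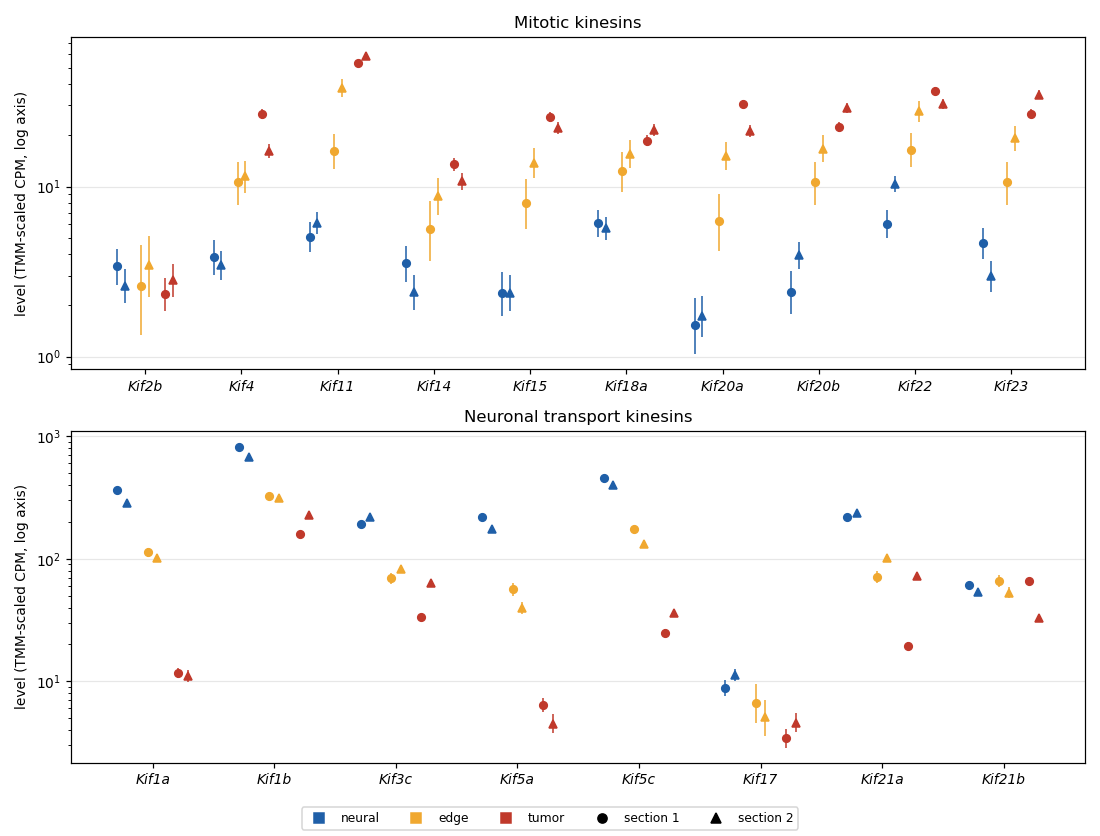
Level of each mitotic (top) and neuronal transport kinesin (bottom) in TMM-scaled CPM on a log axis, in neural, edge and tumor spots of section 1 (circles) and section 2 (triangles); bars are exact 95% Poisson intervals and cover counting error only. *Kif11* climbs from 5.09 and 6.14 CPM in neural spots to 53.3 and 58.7 CPM in tumor, *Kif1a* drops from 367 and 287 to 11.6 and 11.1 CPM, and the regions overlap for *Kif2b* and *Kif21b*.

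Because 9 of the 10 mitotic members rose together, the promoters of the group were searched for 2 short motifs that are known from genes of the late cell cycle: the cell cycle homology region TTTGAA and the CCAAT box. The search took both strands of the 250 bases before the annotated start (RefSeq, GRCm38.p6). The motifs do not overlap each other in letters, and the table held a promoter for 29 of the 37 members. TTTGAA occurred in 4 of 9 mitotic promoters (44.4%), against 16.0% of all 32851 promoters of that length, and CCAAT in 6 of 9 (66.7%), against 33.8%. These 6 include the promoter of *Kif2b*, which was not called in tumor against neural. Both motifs stood in *Kif11*, *Kif14* and *Kif22* (33.3% of the 9, against 5.55% of all). Outside the mitotic group both also stood in *Kif26b* and *Kif27*, neither of them called in tumor against neural. Among all 33 promoters of members, 5 held both (15.2%). Within the last 50 bases, a window chosen after the matches were seen, TTTGAA occurred in 3 of the 9 and in 2.63% of all promoters. In that window it also occurred in *Kif1a*, a neuronal transport kinesin, and in *Kif26b*, at 9 to 4 bases before the start. The 150 bases before the start are shown for the 3 mitotic genes with TTTGAA close to it and for *Kif20b*, which holds neither motif. Capitals mark the motifs, and in these 3 genes TTTGAA reads TTCAAA on the gene's strand. The windows are chr19:37376232-37376381 on the plus strand for *Kif11*, chr9:122950931-122951080 on the plus strand for *Kif15*, chr7:127042421-127042570 on the minus strand for *Kif22* and chr19:34922208-34922357 on the plus strand for *Kif20b*. The starts of *Kif22* and *Kif20b* in that table lie 47 and 23 bases inside the gene's outermost annotated end, and those of *Kif11* and *Kif15* lie at it. That of *Kif14*, counted above, lies 1547 bases inside, and without it TTTGAA occurred in 3 of 8 mitotic promoters (37.5%), CCAAT in 5 (62.5%) and both in 2 of the 8.
Kif11: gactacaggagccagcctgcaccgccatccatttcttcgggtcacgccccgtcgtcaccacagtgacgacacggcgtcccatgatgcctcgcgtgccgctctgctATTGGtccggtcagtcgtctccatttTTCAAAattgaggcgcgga
Kif15: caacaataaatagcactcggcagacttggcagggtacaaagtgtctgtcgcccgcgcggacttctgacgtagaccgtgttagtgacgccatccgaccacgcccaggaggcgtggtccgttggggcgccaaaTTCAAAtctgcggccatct
Kif22: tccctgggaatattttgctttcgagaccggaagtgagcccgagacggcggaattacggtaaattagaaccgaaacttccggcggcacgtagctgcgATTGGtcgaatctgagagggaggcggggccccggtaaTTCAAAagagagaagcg
Kif20b: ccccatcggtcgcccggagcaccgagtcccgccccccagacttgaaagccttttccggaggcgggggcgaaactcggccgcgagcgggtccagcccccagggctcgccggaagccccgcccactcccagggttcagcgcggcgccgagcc

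In *Kif11* and *Kif15* the match to TTTGAA spans the same positions, 19 to 14 bases before the start, and in *Kif22* it spans 17 to 12 bases before it. Of the called mitotic members with neither motif in the bases searched, *Kif20b* rose by 3.03 on the log2 scale and *Kif18a* by 1.75. Of those with both, *Kif11* rose by 3.33, *Kif22* by 2.10 and *Kif14* by 2.03. The values of these groups overlapped, and whether the motifs go with the size of the rise was not tested. A match is only a run of letters, and binding at these promoters was not measured.

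The neuronal transport kinesins were lower in tumor than in neural tissue, in both sections. Their sum was 2344 and 2059 CPM in neural spots, 882 and 831 CPM at the edge, and 324 and 453 CPM in tumor. Of the 8, 7 fell by edgeR's quasi-likelihood test, against 14.4% of all genes called lower, and the median log2 fold change was −2.34, beside −0.07 over all genes. The 16 neural markers that placed the spots went from 21140 and 18065 to 726 and 807 CPM, a steeper drop than that of the sum, and the part of neural RNA content in this result was not tested.

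The largest fitted falls were those of *Kif5a*, *Kif1a* and *Kif5c*, motors known mainly from neurons. *Kif1a*, which carries synaptic vesicle precursors down the axon, had 367 and 287 CPM in neural spots, 113 and 102 CPM at the edge, and 11.6 and 11.1 CPM in tumor. *Kif5a*, a conventional kinesin of neurons that moves neurofilaments, had 221 and 174 CPM in neural spots, 56.3 and 39.7 CPM at the edge, and 6.43 and 4.50 CPM in tumor. For both genes the 3 regions were apart in every section, and the tumor kept between 2.59% and 3.86% of the neural level. Their log2 fold changes were −4.84 (SE 0.23) and −5.18 (SE 0.23), each with an adjusted p of 0.00194 by edgeR. *Kif5c*, the other neuron-rich conventional kinesin, fell from 456 and 404 CPM to 24.9 and 35.9 CPM, a log2 fold change of −3.82 (SE 0.32, adjusted p = 0.00294 by edgeR).

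The fitted falls of the other members were smaller, and differences between genes were not tested. *Kif1b*, which carries mitochondria and vesicle precursors, had 818 and 677 CPM in neural spots, 325 and 315 CPM at the edge, and 160 and 227 CPM in tumor, a log2 fold change of −1.96 (adjusted p = 0.00968 by edgeR). *Kif3c* fell by 2.13 on the log2 scale, and *Kif17*, a motor of dendrites, fell by 1.33 at levels of only 3.45 to 11.3 CPM. *Kif21a*, whose product slows the growth of microtubules, fell by 2.55 in the fit (adjusted p = 0.025 by edgeR), but by 3.48 within section 1 and by 1.69 within section 2. The difference lay in the tumors, where *Kif21a* had 19.3 CPM in section 1 and 73.0 CPM in section 2, while its neural levels were 221 and 236 CPM. Its relative *Kif21b*, which T cells and other leukocytes also express, did not pass, with 65.5 and 32.9 CPM in tumor and 60.9 and 53.2 CPM in neural spots. The 5 T cell markers summed to 210 CPM in the tumor of section 1 and to 9.22 CPM in that of section 2, and their part in the *Kif21b* levels was not tested.

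Per spot, without scaling, the falls were shallower, since tumor spots held several times more UMIs. For 1000 spots, *Kif1a* gave 533 and 369 UMIs in tumor and 3412 and 3344 UMIs in neural tissue, so it remained well below. *Kif1b* gave 7324 and 7561 UMIs in tumor and 7600 and 7890 UMIs in neural tissue, so its tumor and neural counts per spot were nearly equal. *Kif17* gave 158 and 153 UMIs in tumor and 82.6 and 132 UMIs in neural tissue, the opposite order.

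**Figure D3:**
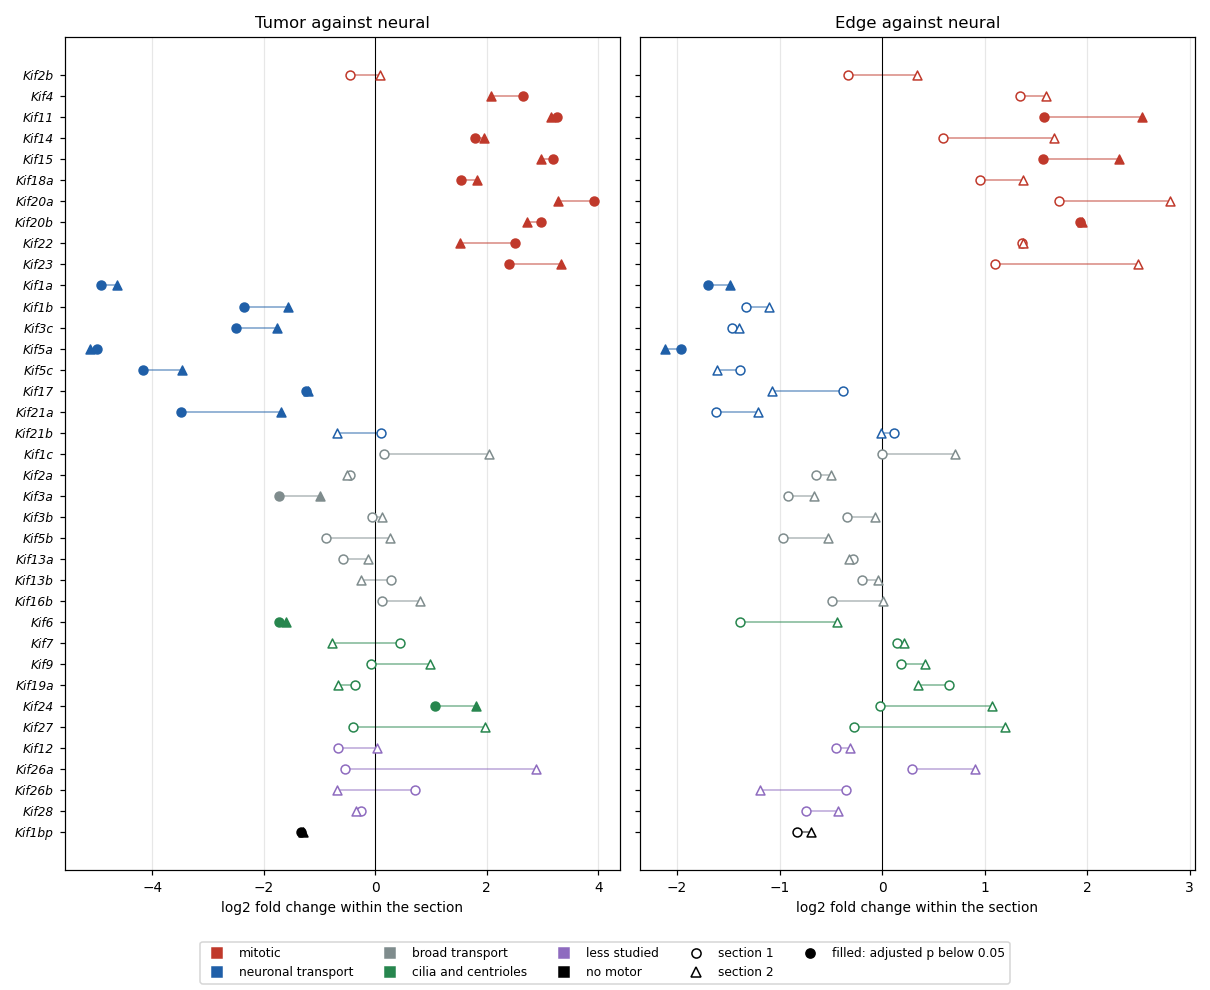
Log2 fold change of each of the 37 members within section 1 (circles) and section 2 (triangles), with 0.5 CPM added to both levels, for tumor against neural (left) and edge against neural (right); colors give the role and filled symbols an adjusted p below 0.05. In the left panel 9 mitotic members and *Kif24* are filled on the right of 0, and 10 members, 7 of them neuronal transport motors, on the left.

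Among the 8 broadly expressed transport kinesins, 1 fell (12.5%) and none rose in tumor against neural. Of all genes, 14.4% were called lower and 13.8% higher, so the share that fell was near that of all genes. Their median log2 fold change was −0.14, beside −0.07 over all genes. The member that fell was *Kif3a*, the shared subunit of heterotrimeric kinesin-II, with 88.6 and 89.2 CPM in neural spots and 26.3 and 44.7 CPM in tumor. Its log2 fold change was −1.37 (adjusted p = 0.0203 by edgeR). Its partner *Kif3b* had 43.6 and 43.8 CPM in tumor and 45.4 and 40.3 CPM in neural spots, so the regions overlapped. *Kif5b*, the conventional kinesin of all tissues, did not pass, and the sections pointed opposite ways: 188 CPM in tumor against 350 CPM in neural spots in section 1, and 374 against 312 CPM in section 2. *Kif1c*, a motor of migrating cells, had 187 and 575 CPM in tumor, 168 and 229 CPM at the edge and 168 and 139 CPM in neural spots. Its tumor level was 112% of the neural level in section 1 and 412% in section 2, and the fit did not call it (adjusted p = 0.16 by edgeR).

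Of the 6 members of cilia and centrioles, *Kif24* rose and *Kif6* fell. *Kif24*, a centriolar kinesin that restrains the growth of primary cilia, had 11.2 and 16.9 CPM in tumor and 5.04 and 4.46 CPM in neural spots, a log2 fold change of 1.51 (adjusted p = 0.0456 by edgeR). *Kif6*, a motor of ependymal cilia, had 1.60 and 0.714 CPM in tumor and 6.47 and 3.19 CPM in neural spots, a log2 fold change of −2.05 on 20 to 126 UMIs a library (adjusted p = 0.0155 by edgeR). *Kif7*, *Kif9*, *Kif19a* and *Kif27* did not pass, nor did any of the 4 less studied members, *Kif12*, *Kif26a*, *Kif26b* and *Kif28*. *Kif1bp* fell from 214 and 191 CPM to 85.0 and 77.8 CPM, a log2 fold change of −1.32 (adjusted p = 0.0102 by edgeR). Over all 37 members, 10 rose and 10 fell, against 28.3% of all genes called in this comparison.

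At the edge, 21 of the 37 members lay between their tumor and neural levels in both sections, among them 19 of the 20 called in tumor against neural. *Kif24* was the exception, with 4.98 CPM at the edge of section 1 and 5.04 CPM in its neural spots. Edge spots were picked for an intermediate marker balance, so a level in between was favored by how they were placed. The share of all genes that lay between was not counted, so whether these counts are particular to kinesins was not tested. *Kif19a* lay above both regions, with 10.6 and 8.29 CPM at the edge, and *Kif3b*, *Kif5b*, *Kif26b* and *Kif28* lay below both in each section, with *Kif5b* at 178 and 217 CPM and *Kif26b* at 37.4 and 22.2 CPM. Against neural spots 3 rose, *Kif11*, *Kif15* and *Kif20b*, and 2 fell, *Kif1a* and *Kif5a*, against 2.56% of all genes called higher, 2.85% called lower and 5.41% called in either direction. The log2 fold changes of *Kif11* and *Kif15* were 2.20 and 2.19 in the fit, with 1.58 and 1.57 in section 1 and 2.54 and 2.31 in section 2, and that of *Kif20b* was 2.10 (adjusted p from 0.0357 to 0.0483 by edgeR). *Kif1a* fell by 1.60 and *Kif5a* by 2.05 on the log2 scale, each with an adjusted p of 0.035 by edgeR. The mitotic median was 1.77 and the neuronal transport median −1.45, beside −0.02 over all genes. These calls depended on how the edge was drawn. With spots at region borders left out, or with the edge not limited in distance, edgeR called no gene of the whole table here. Both the limit of 5 array steps and the alternative without it were chosen after seeing the data. With DESeq2 in place of edgeR, 9 mitotic members rose and 7 members fell, and 3105 genes of the whole table were called in either direction.

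Edge spots held markers of both tissues. Neuronal transport kinesins stood at 37.6% and 40.4% of their neural level there, and the 16 neural markers at 35.1% and 30.1% of theirs. The mitotic sum at the edge was 38.7% of the tumor sum in section 1 and 68.8% in section 2. The stromal markers stood at 8.18% and 55.2% of their tumor level there, and the epithelial markers at 74.9% and 20.3%. The tumor of section 1 held few epithelial markers and that of section 2 few stromal ones. How far mixing accounts for the mitotic level at the edge was not tested. Macrophage markers (*Cd68*, *Csf1r*, *Aif1*, *Lyz2* and *C1qa*) summed to 3927 and 3239 CPM at the edge, 4317.5 and 1002 CPM in tumor and 727 and 799 CPM in neural spots. In section 2 the edge was thus above both other regions. Endothelial markers (*Pecam1*, *Cdh5*, *Kdr*, *Cldn5* and *Flt1*) were above both in each section, with 324 and 454 CPM at the edge, 278 and 407 in tumor and 195 and 197 in neural spots. The part of these cell types in the edge levels was not tested.

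In tumor against edge, *Kif1a*, *Kif5a* and *Kif5c* fell, with log2 fold changes of −3.24, −3.13 and −2.33 and adjusted p of 0.0134, 0.0134 and 0.0268 by edgeR, where 4.21% of all genes were called lower and 4.66% in either direction. No member was called higher by edgeR, beside 0.452% of all genes. An unadjusted p below 0.05 was found for 11 members in either direction, and the share of all genes at that limit was not counted. DESeq2 called 3 higher, *Kif11*, *Kif15* and *Kif20b*, and 2696 genes of the whole table in either direction. The mitotic median was 0.93, beside 0.04 over all genes. The gap was wider in section 1 for all 9 mitotic members that rose in tumor against neural: for *Kif20a* it was 2.20 on the log2 scale in section 1 and 0.46 in section 2.

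Spots were also binned by distance from the tumor border, counted in array steps, with levels in unscaled CPM of the summed spots and exact 95% intervals. Edge spots lay within 5 steps by definition, so all spots binned beyond 5 steps were neural. The 180 and 240 spots placed in no region were left out. How spots were placed thus favored a change at 5 steps. The mitotic sum was lower beyond 5 steps outside the tumor than next to it in both sections. In section 1 it was 231 (225 to 238) at 9 or more steps inside, 170 (157 to 183) at 1 to 2 steps inside, 112 (98.7 to 127) at 1 to 2 steps outside, 119 (107 to 133) at 3 to 5 steps, 63.0 at 6 to 10 steps, 28.2 (23.9 to 33.1) at 11 to 20 steps and 35.4 (31.6 to 39.5) beyond 20 steps, so it was not lower at every step. In section 2 it was 189 (174 to 205) at 9 or more steps inside, 235 (227 to 244) at 1 to 2 steps inside, 178 (167 to 189) at 1 to 2 steps outside, 125 at 3 to 5 steps, 58.5 at 6 to 10 steps, 56.7 at 11 to 20 steps and 30.1 beyond 20 steps. The rim thus held the lowest value inside the tumor of section 1 and the highest inside that of section 2, with intervals that did not overlap those of the deep spots. The rim of section 1 was also shallower, with a median of 31753 UMIs per spot against 50902.5 in the deep spots, while in section 2 the medians were 37887 and 36336.

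The neuronal transport sum was higher in each bin farther outside the tumor, in both sections. Its rise across 5 steps was favored by how spots were placed. It went from 272 (265 to 280) deep in the tumor of section 1 to 456 at the rim, 870 at 1 to 2 steps outside, 1922 at 6 to 10 steps and 2870 (2835 to 2906) beyond 20 steps. In section 2 the same steps gave 341 (321 to 362), 422, 833, 1654 and 2424 (2400 to 2448). *Kif1a* was at 7.05 and 2.87 CPM deep in the tumors, on 140 and 9 UMIs, and at 451 and 347 beyond 20 steps. *Kif5a* went from 3.17 and 2.55 to 314 and 212 over the same distance. The tumor side of the border already held more of both, with *Kif1a* at 31.6 and 20.5 within 1 to 2 steps inside.

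**Figure D4:**
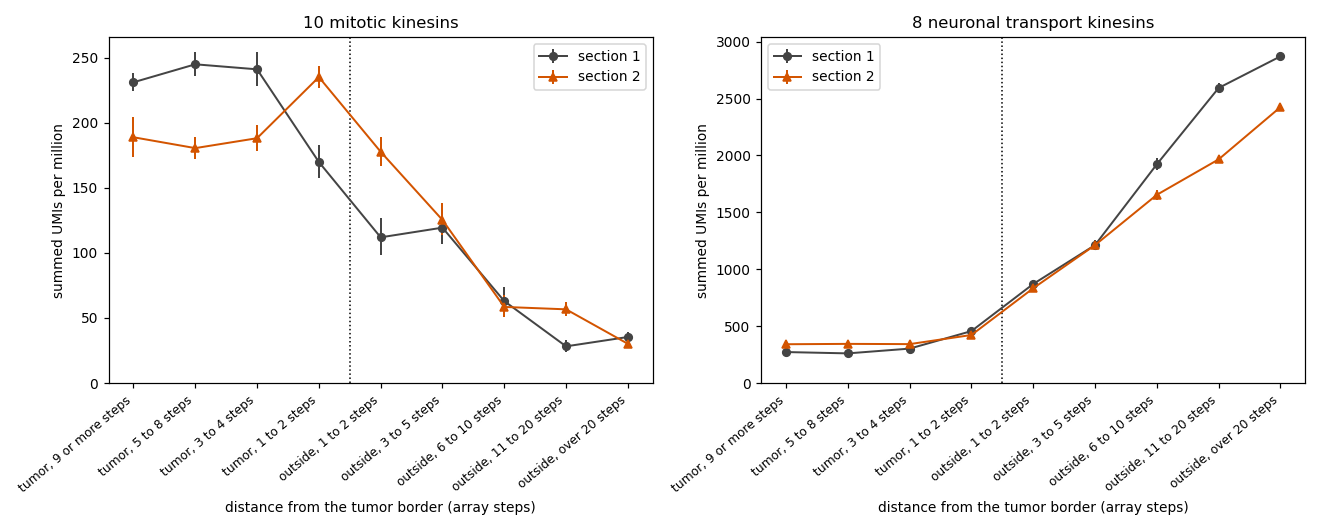
Summed unscaled CPM of the 10 mitotic (left) and 8 neuronal transport kinesins (right) in bins of distance from the tumor border, in array steps, for section 1 (circles) and section 2 (triangles), with exact 95% Poisson intervals; the dotted line is the border. The mitotic sum drops to 35.4 and 30.1 beyond 20 steps, and the neuronal transport sum climbs to 2870 and 2424. All spots beyond 5 steps outside are neural by how spots were placed, and spots in no region are left out.

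Within each tumor, spots were split into 4 groups of equal size by their share of UMIs from 21 mitosis genes that are no kinesins, and the mitotic sum was higher where these genes took a larger share. From the lowest to the highest group, the mitotic sum went from 187 to 268 unscaled CPM in section 1, a ratio of 1.44, and from 115 to 320 in section 2, a ratio of 2.79. *Kif11* went from 36.3 to 58.1 in section 1 and from 23.9 to 76.1 in section 2. *Kif4*, *Kif11*, *Kif15*, *Kif20a*, *Kif20b*, *Kif22* and *Kif23* were higher in the top group with intervals apart in both sections, *Kif14* and *Kif18a* in section 2, and *Kif2b* in neither. These intervals cover counting error only, and the share of all genes apart in the same way was not counted. *Kif24*, which rose with them in tumor against neural, had ratios of 1.18 and 1.39 with overlapping intervals. The lowest group of section 1 had a median of 39879 UMIs per spot and the highest 59748.5, and in section 2 the medians were 40203 and 42409. Markers of other cell types also differed between the lowest and the highest group, and their part in these ratios was not tested. The 16 neural markers went from 1189 to 508 in section 1 but from 471 to 833 in section 2. In section 2 the oligodendrocyte markers went from 242 to 589, the stromal from 554 to 929 and the epithelial from 11202 to 9032. The 21 sorting genes include *Anln*, which myelinating oligodendrocytes also express. It had 126 and 90.8 TMM-scaled CPM in neural spots and 63.9 and 60.6 in tumor, and its part in the grouping was not tested. *Kif26a* ran the other way in section 2, from 50.8 in the lowest group to 26.2 in the highest.

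The tumors of the 2 sections can be set side by side but not tested, with 1 section each. The mitotic members were a median of 1.24-fold apart, with none at 4-fold or more, although counting intervals were apart for 8 of 10. Over all 37 members the median was 1.42-fold, and intervals were apart for 29. The median fold and the share apart over all genes were not counted. At least 4-fold apart were *Kif26a*, whose family lacks motor activity, with 3.88 CPM (3.27 to 4.57) in section 1 and 46.3 CPM (43.8 to 48.9) in section 2, and *Kif27*, with 1.74 and 10.0 CPM. Their neural levels were close, at 5.91 and 5.80 CPM for *Kif26a* and 2.47 and 2.18 CPM for *Kif27*. Both were thus above neural tissue in the tumor of section 2, which held the epithelial markers, and not in that of section 1. *Kif26b* ran the other way, with 78.6 CPM in section 1 and 31.9 CPM in section 2, beside 48.0 and 51.4 CPM in neural spots. *Kif7*, a regulator of Hedgehog signaling at the ciliary tip, was likewise higher in section 1, with 6.73 and 2.04 CPM.

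Within neural tissue, spots rich in the markers of a cell type differed in their kinesins, given here as unscaled CPM in such spots beside all other neural spots. Members are called higher or lower only where the counting intervals were apart in both sections, with no test. The share of all genes apart in this way was not counted. *Kif5c* was the member higher in Purkinje-rich spots, with 884 beside 461 in section 1 and 616 beside 367 in section 2. Of the neuronal transport motors, *Kif1a*, *Kif1b* and *Kif21a* were lower there, by ratios of 0.674 to 0.857. So were *Kif1c*, *Kif2a* and *Kif13b* of the broadly expressed ones, by ratios of 0.614 to 0.809. Among the neuronal transport motors, *Kif1a*, *Kif1b*, *Kif3c*, *Kif5a* and *Kif21a* were higher in spots rich in neurofilament and other projection neuron markers, with ratios from 1.19 to 1.52. The broadly expressed *Kif2a*, *Kif3a* and *Kif5b* were higher there too, with ratios from 1.13 to 1.63. In granule-rich spots these 5 neuronal motors and *Kif21b* were lower, with ratios from 0.544 to 0.937. So were *Kif1c*, *Kif2a*, *Kif5b* and *Kif1bp*, with ratios from 0.588 to 0.883.

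Granule-rich spots were instead higher in *Kif26b*, with 96.7 beside 44.0 in section 1 and 105 beside 39.0 in section 2, in *Kif7*, with 9.60 beside 4.46 and 7.65 beside 2.99, and in *Kif2b*, with 9.24 beside 2.66 and 6.25 beside 1.72. The values of *Kif2b* rested on 26 and 40 UMIs, and in section 1 its level in Purkinje-rich spots was as high, at 13.8 on 21 UMIs. Oligodendrocyte-rich spots, myelinated white matter by their markers, were higher in *Kif1c* (319 beside 182 and 247 beside 141), *Kif5b* (762 beside 377 and 472 beside 319) and *Kif13b* (168 beside 98.1 and 191 beside 95.7). In section 1 these were only 77 spots with a median of 2005 UMIs. Ependyma-rich spots were higher in the ciliary members *Kif6* (14.8 beside 5.91 and 7.11 beside 2.87) and *Kif9* (10.5 beside 4.82 and 12.3 beside 4.17). *Kif11* was higher there as well, with 10.9 beside 4.76 and 12.6 beside 5.67, and *Kif19a*, which shortens cilia, was apart in section 2 alone, with 15.2 beside 5.67.

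**Figure D5:**
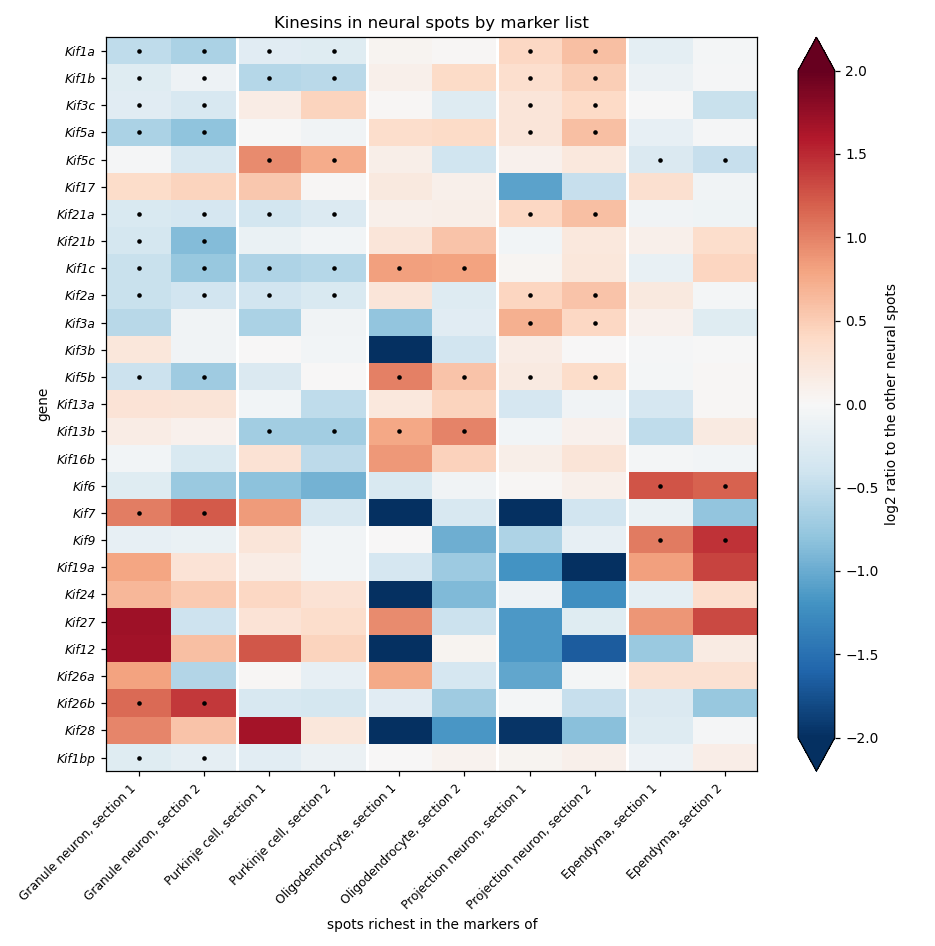
Log2 ratio of each of the 27 members outside the mitotic group in neural spots rich in the markers of a cell type over the other neural spots, for both sections; red is higher, blue is lower, and dots mark pairs whose counting intervals were apart the same way in both sections. *Kif5c* stands out in Purkinje-rich spots, *Kif26b* and *Kif7* in granule-rich spots, *Kif5b* and *Kif13b* in oligodendrocyte-rich spots and *Kif6* and *Kif9* in ependyma-rich spots.

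Of 23 measured mitosis genes that fall outside the symbol rule, 22 rose in tumor against neural, against 13.8% of all genes, with a median log2 fold change of 3.23 beside −0.07. At the edge against neural 18 rose, against 2.56% of all genes, with a median of 2.20 beside −0.02, and none passed in tumor against edge by edgeR, where 0.452% of all genes were called higher (median 0.97 beside 0.04). There 20 of the 23 were higher at an unadjusted p below 0.05, a limit at which the share of all genes was not counted. DESeq2 called 12 higher there, and 2696 genes of the whole table in either direction. *Cenpe* and *Kifc1* of this list encode kinesin motors too, and without them 20 of 21 rose in tumor against neural and 16 at the edge. The largest rises were in *Prc1*, which bundles the microtubules on which *Kif4* and *Kif20a* work, with 89.4 and 87.1 CPM in tumor and 4.37 and 7.28 CPM in neural spots, and in *Mki67* and *Ect2*, with log2 fold changes of 3.97, 3.87 and 3.60. *Anln*, which myelinating oligodendrocytes also express, did not pass (log2 fold change −0.79). Of 21 genes for kinesin light chains, adaptors, dynein and axonal microtubules, 17 fell in tumor against neural (median −2.13, against 14.4% of all genes), 10 at the edge against neural (median −1.16, against 2.85%) and 7 in tumor against edge (median −0.83, against 4.21%). *Tuba4a*, a tubulin of neurons, *Dync1i1*, a neuronal chain of the motor that runs opposite to most kinesins, and *Mapt*, which encodes tau, fell most, with log2 fold changes of −4.66, −4.53 and −4.48. *Klc4*, *Trak1*, *Dync1h1* and *Map6* did not pass, with *Dync1h1*, the heavy chain that all cells use, at −0.05 and *Map6* at −2.13 (adjusted p = 0.0762 by edgeR).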

How the data were processed

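Spatial RNA of 2 formalin-fixed sections was analysed, 1 per biological replicate, with sections 1 and 2 taken as the labels' replicates 1 and 2. The authors counted UMIs per gene and spot with Space Ranger 2.1.1, per the submitters' processing notes, which name mm10, and deposited raw counts for spots under tissue without normalization. Their region of interest, clustering and deconvolution are not in these counts. UMIs of close relatives could be split by probe design.

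Spots with at least 500 UMIs and 10 genes were kept (3315 of 3406 and 3999 of 4017). The log2 ratio of tumor to neural marker CPM, with 1000 CPM added to each, was cut by a 3-level Otsu threshold per section. Patches under 20 tumor spots were dropped, and spots over 10000 CPM of choroid plexus markers were set aside. The 1000 CPM and the limit of 5 array steps for edge spots were chosen after seeing the data, and 100 CPM and no limit are the alternatives. UMIs were summed into 6 libraries of 4052815 to 41028718 UMIs (TMM factors 0.822 to 1.14) and fitted over 19231 genes with edgeR 4.0.16 in R 4.3.3 (filterByExpr, glmQLFit with robust estimation, glmQLFTest, Benjamini-Hochberg over all genes, calls at an adjusted p below 0.05). Each section is 1 animal, so its regions were treated as paired, with a block for the section and 2 residual degrees of freedom. The fit drew the spread of each gene toward that of all genes, so its p-values do not rest on these 2 alone. Same-section libraries deviated together: common dispersion dropped from 0.148 to 0.098 once the block was added. The test was first tested on simulated data, set to a lower dispersion than was fitted here, so that run does not measure its errors on these data.

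Neural spots went to the cell type with their highest marker z score above 1. Python 3.11.15 (numpy 2.4.6, pandas 2.3.3, scipy 1.17.1, scikit-image 0.26.0) gave distances, groups of tumor spots, domains and exact Poisson intervals, which cover counting error only, from unscaled CPM, and promoters came from RefSeq. The members, roles and lists were chosen with earlier results of these data known. Fold changes are printed for members called the same way in both sections, and of the pathway lists the 3 largest. *Ccnb1*, *Cdc20* and *Tubb4a* of those lists were not analysed here. Alternatives were RLE factors, library size alone, DESeq2 1.42.0, no filter, no replicate block, k-means regions (scikit-learn 1.9.0), no border spots, 1000 UMIs per spot, a split edge, each section alone and unscaled UMIs per spot, with z scores above 2 for domains.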

Additional observations from a re-analysis of the deposited data

How the results depend on the processing

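In tumor against neural, 9 to 10 kinesins rose and 9 to 11 fell under every refit, and of the 20 called members, 18 to 20 were shared with each. Within each section alone, without a test, all members called in the 3 comparisons kept their direction. By edgeR the adjusted p went above 0.05 for *Kif14* (0.0579, k-means regions), *Kif17* (0.0512 to 0.057 under 3 settings) and *Kif24* (0.0718 with library size alone and 0.061 without border spots). Without scaling, as log2 UMIs per spot averaged over the sections, *Kif17*, *Kif3a* and *Kif1bp* turned to 0.58, 0.54 and 0.59. The means of the other 17 kept their direction, and the cause was not tested. Within section 1 *Kif6* turned too, with 73.5 UMIs per 1000 tumor spots and 60.2 per 1000 neural spots, beside 23.8 and 37.2 in section 2. Library size alone moved the all-gene median (log2) from −0.07 to −0.39 and the split from 2658 higher and 2776 lower to 1839 and 3818.

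Edge calls were the least stable. Against neural, the 3 higher and 2 lower kinesins and the 1041 genes called by edgeR became 0, 0 and 0 without border spots and likewise 0, 0 and 0 with the edge not limited in distance, 8, 8 and 3696 with the edge split in 2, and 9, 7 and 3105 with DESeq2. With k-means regions 2 kinesins rose, *Kif11* and *Kif20b* but not *Kif15*, and 5 fell. The count of all genes called with k-means regions is not given here. In tumor against edge, the 0 higher kinesins became 3 with the split edge and with DESeq2, and the 896 genes called became 301 with k-means regions, 587 without border spots, 3324 with the split edge and 2696 with DESeq2. The causes were not tested.

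The regions of a section are paired, since each section is 1 animal. Without the replicate block, 10 kinesins rose and 10 fell in tumor against neural (4710 genes called). At the edge against neural 4 rose and 3 fell (958 genes), and in tumor against edge 0 rose and 3 fell (939 genes). Leaving out the block thus moved no count of kinesins by more than 1.5 times.

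The log2 ratio of the deepest tumor over the farthest neural spots, averaged over sections, was 2.68 for the mitotic and −3.11 for the neuronal transport sum in CPM, and 4.97 and −0.82 per spot. With a domain z score above 2, the log2 ratios moved from 0.84 to 0.66 for *Kif5c*, from 1.27 to 1.57 for *Kif26b*, from 0.79 to 1.29 for *Kif5b*, from 0.51 to 0.31 for *Kif21a* and from 1.25 to 2.03 for *Kif9*. Depth limits *Kif2b*, *Kif6*, *Kif7*, *Kif12*, *Kif17*, *Kif27* and *Kif28*, which had 7 to 41 UMIs in the edge libraries. In the edge library of section 1 counts were low for further members. Among these were *Kif15*, called higher at the edge, on 37 UMIs, and *Kif14*, *Kif20a* and *Kif24* on 26, 29 and 23.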
